A study of Homo sapiens with 6 samples.

Results

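The 9 genes HSPA1A, HSPA1B, HSPA1L, HSPA2, HSPA4, HSPA6, HSPA8, HSPA13 and HSPH1 of the human HSP70 chaperone family were read out of a table of 58735 genes by their symbols, and all 9 were found and tested. Libraries came from Het1A, a line of normal human oesophageal epithelium immortalised with SV40 large T antigen. In 3 bile acid libraries the cells had been placed once a day, on 5 days, for 10 min in keratinocyte medium brought to pH 4.0 with a 100 µM mixture of deoxycholic acid, its glycine conjugate glycodeoxycholic acid, glycocholic and taurocholic acid, and glycochenodeoxycholic acid. In 3 control libraries they had received 0.1% DMSO, and the labels do not say that this medium was acidified, so acid and bile acids cannot be told apart. Serum was at 1% in both groups, starting 48 h ahead of the exposures, and RNA was taken 24 h after the last of them. The labels call the libraries biological replicates of a single cell line without saying how the cultures were separated, so p-values measure the spread between these libraries.

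HSP70 proteins are ATP-driven chaperones that bind unfolded stretches of other proteins. Co-chaperones with a J domain bring them clients, while nucleotide exchange factors, among them the larger relatives HSPA4 and HSPH1 of the HSP110 branch, reset them for the next round. When unfolded protein accumulates, the factor HSF1 binds inverted repeats of the letters GAA, called heat shock elements, in front of the inducible genes. HSPA6, HSPA1A and HSPA1B belong to the inducible kind, HSPA8 is the constitutive chaperone of the cytosol, and HSPA2 and HSPA1L are best known from the testis. HSPA13 is known as a protein of microsomes, so the name cytosolic does not hold for it.

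Total counts were 27008714 to 28497721 in bile acid libraries and 21006677 to 26218597 in control libraries, and a floor of 3 counts equalled 0.105 to 0.111 CPM (counts scaled to library size) in bile acid and 0.114 to 0.143 CPM in control libraries. Control library 2 stood apart. Its log2 CPM correlated across genes at 0.890 to 0.928 with the other 5 libraries, which correlated at 0.974 to 0.986 among themselves (Pearson, genes not being independent replicates). Relative to controls 1 and 3, its genes of at most 2542.5 bases had a median log2 difference of 0.55 and those over 6949 bases one of −0.58, and several members are short, so values without it are given beside many of the results. All 5 general epithelial markers reached 1 CPM in every library, with a sum of 925 to 1043 CPM (by library total) in bile acid and 676 to 1309.7 CPM in control libraries. Of 6 basal squamous markers ITGB4 alone did, the sum being 83.1 to 97.7 CPM in bile acid and 33.8 to 132 CPM in control libraries, while KRT5 stood at 0.0370 to 0.2105 CPM in bile acid and 0 to 0.546 CPM in control libraries. Fibroblast markers summed to 114 to 250.02 CPM in bile acid and 44.3 to 226 CPM in control libraries, with 2 or 3 of 7 at 1 CPM or more. Most of that sum was COL1A1, at 94.1 to 233 CPM in bile acid and 36.3 to 204 CPM in control libraries. Leukocyte markers (1 or 2 of 5 at 1 CPM) summed to 13.03 to 17.0 CPM in bile acid and 10.6 to 12.01 CPM in control libraries, endothelial markers (0 or 1 of 4) to 1.04 to 1.97 CPM in bile acid and 0.286 to 2.18 CPM in control libraries, and columnar markers (0 or 1 of 5) to 0.351 to 0.852 CPM in bile acid and 0.496 to 3.48 CPM in control libraries. Most of the leukocyte sum was CD14, at 9.78 to 16.3 CPM over the 6 libraries. KDR was the highest endothelial marker in every library, at 0.286 to 2.18 CPM. The leukocyte genes PTPRC and CD3E and the endothelial gene CDH5 were at 0 in all 6 libraries. The part of any of these markers in the values of the family was not tested. In bulk RNA, fewer cells of a type and less RNA per cell cannot be told apart.

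The promoters of 4 members are printed, those of the inducible HSPA6, HSPA1A and HSPA1B and that of the constitutive HSPA8. With a single constitutive gene among them, they cannot show how the kinds differ. Each holds the 250 bases before the RefSeq start on GRCh38.p14, 5′ to 3′, with capitals on every pair of facing heat shock units, spelled GAANNTTC or TTCNNGAA, where N is any base and each spelling reads the same on both strands. They are HSPA6 (chr1:161524290-161524539, plus strand), HSPA8 (chr11:123062137-123062386, minus strand), HSPA1A (chr6:31815293-31815542, plus strand) and HSPA1B (chr6:31827488-31827737, plus strand).
HSPA6: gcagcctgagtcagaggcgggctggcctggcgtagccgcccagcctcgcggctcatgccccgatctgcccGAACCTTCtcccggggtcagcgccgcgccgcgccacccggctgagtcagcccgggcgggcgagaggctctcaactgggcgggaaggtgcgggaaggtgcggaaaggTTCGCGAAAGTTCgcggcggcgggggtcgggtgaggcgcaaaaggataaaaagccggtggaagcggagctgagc
HSPA8: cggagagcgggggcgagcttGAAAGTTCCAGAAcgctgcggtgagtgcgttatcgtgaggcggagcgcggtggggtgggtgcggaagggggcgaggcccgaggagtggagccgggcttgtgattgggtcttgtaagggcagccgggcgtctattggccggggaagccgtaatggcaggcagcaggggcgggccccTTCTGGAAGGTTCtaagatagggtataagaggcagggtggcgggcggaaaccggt
HSPA1A: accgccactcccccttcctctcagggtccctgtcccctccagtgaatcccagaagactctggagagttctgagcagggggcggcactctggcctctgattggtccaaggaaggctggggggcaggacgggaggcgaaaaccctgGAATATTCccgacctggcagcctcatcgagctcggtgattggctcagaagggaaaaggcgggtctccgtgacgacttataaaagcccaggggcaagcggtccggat
HSPA1B: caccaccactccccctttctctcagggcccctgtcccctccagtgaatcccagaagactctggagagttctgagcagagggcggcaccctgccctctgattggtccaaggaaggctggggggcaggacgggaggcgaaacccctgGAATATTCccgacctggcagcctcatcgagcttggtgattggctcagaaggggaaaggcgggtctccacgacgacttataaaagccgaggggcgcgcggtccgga
HSPA6 had 3 such pairs, of which 2 overlap in a run of 3 units, a pair carried on by NN and a further facing unit, that ends 61 bases before the start. HSPA8 had 4 pairs, all within 2 runs of 3 units, the nearer of them 42 bases before the start. HSPA1A and HSPA1B each had 1 pair, GAATATTC, at 98 and 97 bases before the start. Their promoters were identical at 235 of 249 aligned bases (94.4%). HSPA1L, read in the opposite direction from nearly the same DNA as HSPA1A (chr6:31815284-31815533, minus strand), shares that pair. No match was present in the window of HSPA2, HSPA4, HSPA13 or HSPH1, which says only that these letters are not there. The RefSeq start is not, for every member, the end of the gene span printed below. The windows of HSPA8, HSPA2 and HSPA13 lie inside those spans, and those of HSPA1A, HSPA4 and HSPA1B reach into theirs. All 9 members matched a promoter. A pair occurred in 5 of them and in 11.6% of 35116 promoters of the same length, and a run of 3 units in 2 of them and in 0.441% of those promoters. A match is a description and not a shown binding site.

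Among the 9 genes, HSPA6 had the largest fold change. HSPA6 (chromosome 1, 161524540 to 161526910, plus strand, GRCh38) is a single-exon gene that is nearly silent in unstressed human cells. It had 219, 65 and 195 counts in bile acid libraries 1 to 3, against 23, 13 and 11 counts in control libraries 1 to 3. Scaled for depth this was 7.81, 2.38 and 6.78 CPM in bile acid libraries and 0.827, 0.728 and 0.469 CPM in control libraries. The groups did not overlap, the lowest bile acid library being number 2, and control 2 lay between the other controls. The means were 5.66 ± 2.89 CPM in bile acid and 0.674 ± 0.185 CPM in control libraries (SD, n = 3 each), a log2 fold change of 3.06 (SE 0.54). In edgeR's quasi-likelihood test over 17743 genes the adjusted p was 0.911. DESeq2 called HSPA6 higher (adjusted p = 0.000711), as did the authors' deposited table (log2 fold change 3.10, adjusted p = 0.000192). DESeq2 called 19 genes higher in all, 0.107% of the genes with an adjusted p, and the deposited comparison gave 0.129%. Over the 21 alternatives tried for HSPA6, adjusted p ranged from 4.3e-06 to 1.00. On the scale of log2(FPKM + 1), which understates the change of low genes, the difference was 1.22. Of the 150-base windows of HSPA6, 15.2% also occur in its pseudogene HSPA7, which had 12, 0 and 8 counts in bile acid libraries and 1, 0 and 0 counts in control libraries.

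**Figure D1:**
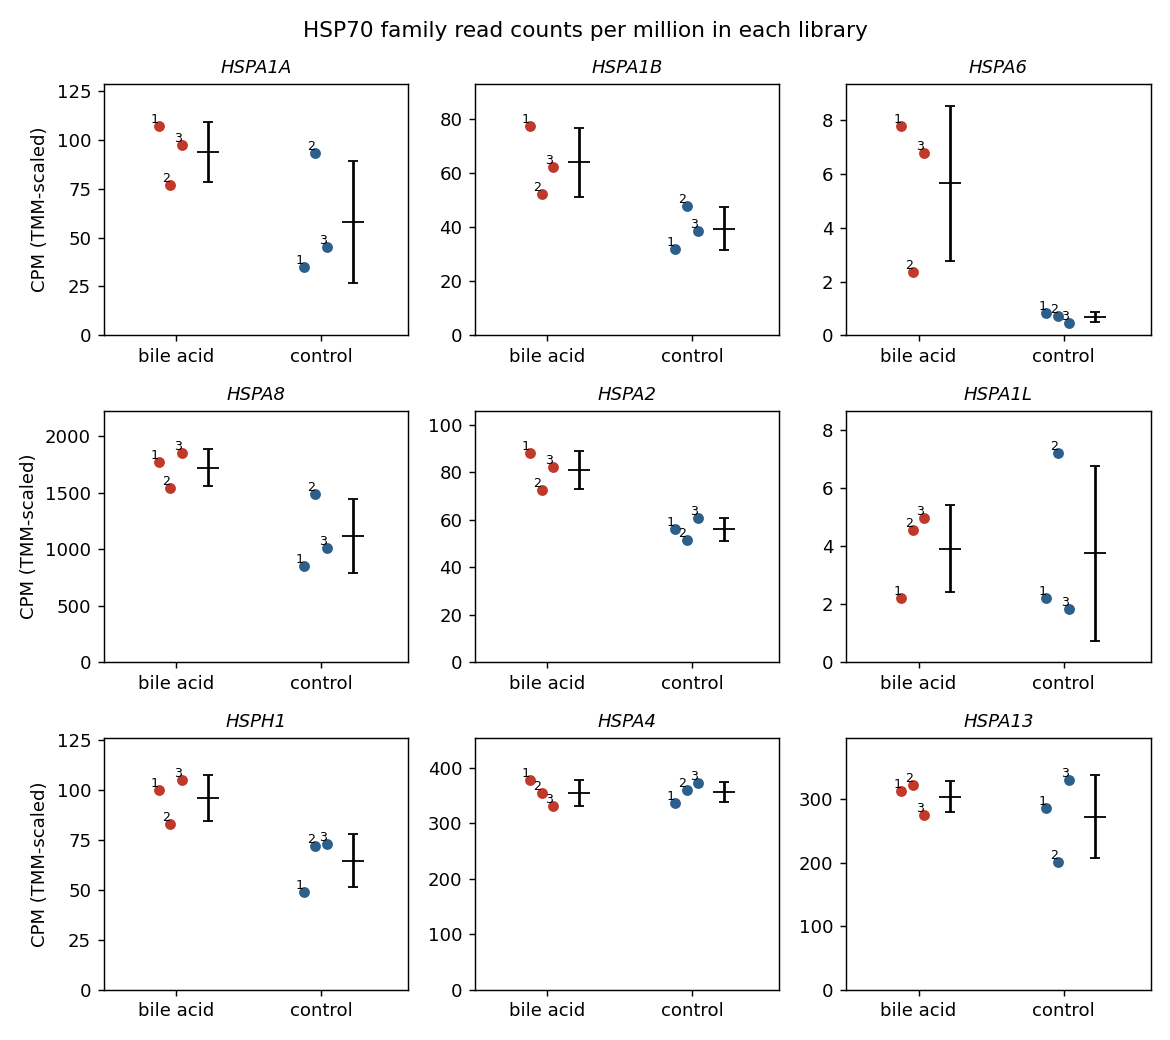
TMM-scaled CPM of the 9 genes (vertical axes, each from 0) in the bile acid (red) and control (blue) libraries, numbered by replicate, with the mean and SD beside them (n = 3). HSPA6, HSPA1B, HSPA8, HSPA2 and HSPH1 show no overlap between the groups, while control 2 reaches 93.4 CPM for HSPA1A and 7.22 CPM for HSPA1L.

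HSPA1A and HSPA1B encode the major stress-inducible HSP70 and lie beside each other on chromosome 6 (31815464 to 31817946 and 31827735 to 31830255, both plus strand). They are uncertain as separate genes, since 63.2% of the 150-base windows of HSPA1A occur in HSPA1B and 66.0% of those of HSPA1B in HSPA1A. HSPA1A measured 107, 77.1 and 97.3 CPM in bile acid libraries, against 35.1, 93.4 and 45.0 CPM in control libraries. Control 2 lay among the bile acid libraries and the other 2 controls below all of them. Its log2 fold change was 0.70 (SE 0.37, edgeR adjusted p = 0.911), and without control 2 it was 1.24 (SE 0.18, adjusted p = 0.135), and without control 1 it was 0.45. HSPA1B measured 77.4, 52.1 and 62.3 CPM in bile acid libraries, against 32.0, 47.7 and 38.5 CPM in control libraries, with no overlap. Its log2 fold change was also 0.70 (SE 0.23, edgeR adjusted p = 0.911) and reached 0.87 (SE 0.19, adjusted p = 0.207) without control 2.

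Whether the groups overlapped for HSPA1B differed between the countings of the reads. The authors also deposited normalized counts, from which whole reads were recovered, and these come from another counting. The recovered reads of HSPA1B were 1.19, 1.24 and 1.21 times the deposited counts in bile acid libraries and 1.18, 1.70 and 1.17 times in control libraries, so control 2 gained most. For HSPA1A that ratio was 1.02 to 1.03 in all 6 libraries. In the deposited normalized counts HSPA1B stood at 2326, 1622 and 1897 in bile acid libraries, against 944, 1979 and 1125 in control libraries. There control 2 lay above 2 of the bile acid libraries and the groups overlapped. The log2 fold change of HSPA1B on the recovered reads was 0.51 (SE 0.31, edgeR adjusted p = 0.917). In the annotation, 36.5% of the exonic bases of HSPA1B (920 of 2521) also belong to a processed transcript on the same strand, which had 0 counts in every library. The part of that overlap in the difference between the countings was not tested.

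Taken as 1 gene, HSPA1A and HSPA1B together measured 185, 129 and 159.6 CPM in bile acid libraries, against 67.0, 141 and 83.5 CPM in control libraries. Control 2 exceeded bile acid library 2 and was below the other 2. The means were 158 ± 27.8 CPM in bile acid and 97.2 ± 38.9 CPM in control libraries (SD, n = 3 each), a log2 fold change of 0.70 (SE 0.31, edgeR adjusted p = 0.911). Without control 2 it was 1.08 in edgeR (SE 0.18, adjusted p = 0.135) and 1.08 in DESeq2 (SE 0.19), which called the pair higher there (adjusted p = 2.9e-05) but not with all libraries (adjusted p = 0.945). HSPA1A made up 58.1%, 59.7% and 61.0% of the counts of the pair in bile acid libraries and 52.3%, 66.2% and 53.9% in control libraries. On the recovered reads these shares were 54.6%, 54.8% and 57.0% in bile acid and 48.7%, 54.0% and 50.8% in control libraries.

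The constitutive HSPA8, which folds new proteins and uncoats clathrin vesicles (chromosome 11, 123057489 to 123063230, minus strand), was the most abundant member. It measured 1772, 1540.45 and 1854 CPM in bile acid libraries, against 855, 1489 and 1015 CPM in control libraries. Every bile acid library was higher, by a narrow margin between bile acid library 2 and control 2. The log2 fold change was 0.62 (SE 0.26, edgeR adjusted p = 0.911), and 0.89 (SE 0.16, adjusted p = 0.141) without control 2. The deposited normalized counts kept the groups of HSPA8 apart, at 45649.6, 39299 and 47442 in bile acid libraries against 21768, 36995 and 25916 in control libraries.

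HSPA2, needed for male meiosis in the mouse (chromosome 14, 64535905 to 64546173, plus strand), measured 88.2, 72.4 and 82.0 CPM in bile acid libraries, against 55.9, 51.3 and 60.9 CPM in control libraries. The groups did not overlap, and control 2 was the lowest library rather than the highest control. Its log2 fold change of 0.53 (SE 0.18, edgeR adjusted p = 0.911) was 0.48 (SE 0.14) without control 2 and 0.47 (SE 0.15) with the length trend removed. HSPA1L (chromosome 6, 31809619 to 31815065, minus strand) had 62, 125 and 143 counts in bile acid libraries, against 62, 129 and 43 counts in control libraries. Bile acid library 1 lay with controls 1 and 3, and control 2 was the highest of all once scaled, at 7.22 CPM. The log2 fold change was 0.07 (SE 0.59) with all libraries and 0.95 (SE 0.38, edgeR adjusted p = 0.569) without control 2.

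Of the exchange factors of the HSP110 branch, HSPH1 and HSPA4 gave different values. HSPH1 (chromosome 13, 31134974 to 31162388, minus strand), a heat-inducible gene, measured 99.7, 83.0 and 105 CPM in bile acid libraries, against 49.1, 71.7 and 72.9 CPM in control libraries. Its groups did not overlap, and control 1 rather than control 2 was the library apart. The log2 fold change was 0.57 (SE 0.22, edgeR adjusted p = 0.911), with a range of 0.41 to 0.69 over the alternatives. HSPA4 (chromosome 5, 133051962 to 133106449, plus strand) measured 378, 354 and 331 CPM in bile acid libraries, against 337, 361 and 372 CPM in control libraries. These groups overlapped throughout, with a log2 fold change of −0.01 (SE 0.17, edgeR adjusted p = 0.995) and a range of −0.05 to 0.04. The microsomal HSPA13 (chromosome 21, 14371115 to 14383484, minus strand) measured 314, 323 and 276 CPM in bile acid libraries, against 286, 202 and 331 CPM in control libraries. The groups overlapped, control 2 was the lowest, and the log2 fold change of 0.16 (SE 0.23, edgeR adjusted p = 0.922) was −0.01 (SE 0.14) without that library.

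**Figure D2:**
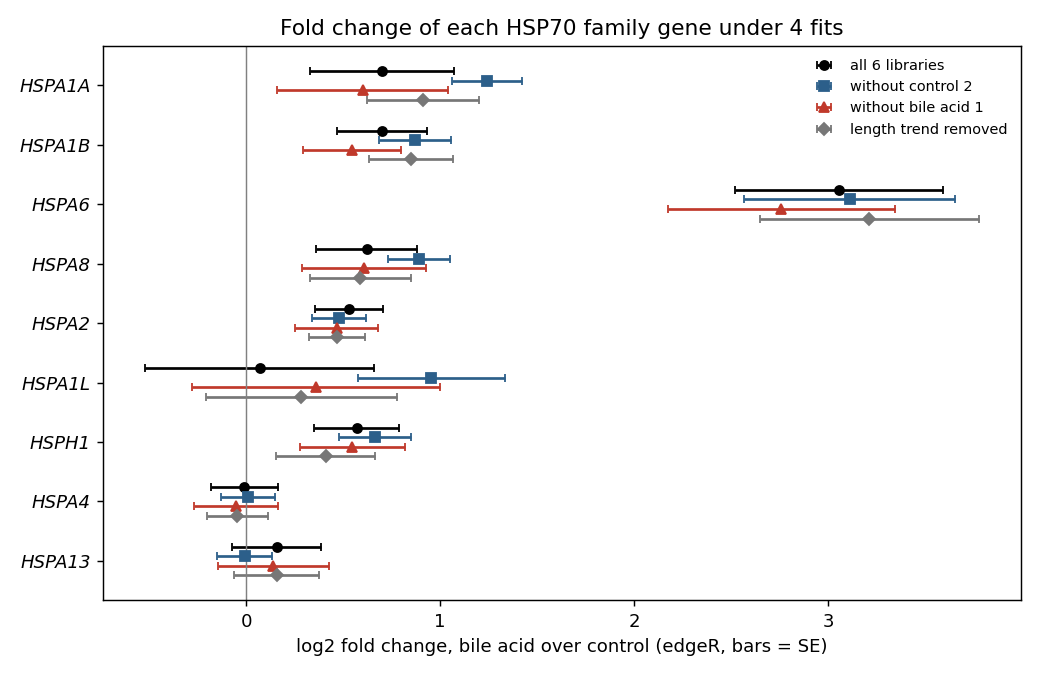
Log2 fold change of bile acid over control (horizontal axis, edgeR, bars are SE) for each gene with all 6 libraries, without control 2, without bile acid 1 and with the length trend removed. HSPA6 lies at 2.76 to 3.21 in the 4 fits, HSPA4 and HSPA13 at −0.05 to 0.16, and HSPA1A and HSPA1L move most when control 2 is left out.

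Across the family, 8 of the 9 members had a positive log2 fold change, with a median of 0.57, beside 48.8% of all tested genes and their median of −0.01. In these tallies HSPA1A and HSPA1B, which share much of their sequence, count as 2 members. The family was also chosen with earlier results of these data known. The groups did not overlap, with all bile acid libraries higher, for 5 members, namely HSPA6, HSPA1B, HSPA8, HSPA2 and HSPH1, a pattern that 5.29% of the 17743 genes showed. In the deposited normalized counts it was 4 members, HSPA1B being lost, beside 5.6% of the genes tested there. In CPM of the deposited counts with control 2 left out, 6 members lay above, HSPA1A being gained, beside 12.1% of the 17743 genes. In edgeR 0 members passed after adjustment over all genes, as did 0 of all 17743 genes (0%, with 588 at an unadjusted p under 0.05), and limma-voom also called 0 of each, with 528. At an unadjusted p under 0.05 edgeR gave the same 5 members, all higher, beside 342 higher genes (1.93%). DESeq2 called HSPA6 alone. Without control 2, DESeq2 called 4 members higher, beside 143 of 16146 genes (0.886%). These were HSPA6 (adjusted p = 4.3e-06), HSPA1A (adjusted p = 1.0e-06), HSPA8 (adjusted p = 2.1e-05) and HSPA1B (adjusted p = 0.00593), and each had an adjusted p of up to 1.00 over its alternatives. In that fit HSPH1 had an adjusted p of 0.0953, HSPA2 0.165 and HSPA1L 0.433. EdgeR without control 2 called 0 members and 1 gene in all (0.00547%). At an unadjusted p under 0.05 it had 7 members higher, beside 5.02% of genes. Leaving out another library, edgeR had 1 member higher at that p without bile acid 1 (0.774% of genes), 4 without bile acid 2 (2.17%), 2 without bile acid 3 (0.863%), 1 without control 1 (2.3%) and 3 without control 3 (1.47%). Limma-voom without control 2 called 0 members and 1 gene (0.00547%), with 6 members higher at an unadjusted p under 0.05, beside 4.4%.

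Control 2 moved the members in different directions. Its log2 difference from the mean of controls 1 and 3 was 1.80 for HSPA1L, 1.23 for HSPA1A, 0.68 for HSPA8, 0.44 for HSPA1B and 0.26 for HSPH1. It was 0.20 for HSPA6, 0.03 for HSPA4, −0.18 for HSPA2 and −0.61 for HSPA13. HSPA6, HSPA1A and HSPA1B have 2371, 2483 and 2521 exonic bases, within the class of short genes whose median difference was 0.55, so HSPA1A lay above that median and HSPA6 below it. With the length trend removed from each library, the log2 fold change was 0.91 (SE 0.29) for HSPA1A, 0.85 (SE 0.22) for HSPA1B and 3.21 (SE 0.56) for HSPA6, and 0 members passed in edgeR, where 4 were higher at an unadjusted p under 0.05, beside 2.34% of genes. Over all 9 members, the median deviation from the gene mean (log2 CPM) was 0.37, 0.14 and 0.43 in bile acid libraries 1 to 3 and −0.63, −0.05 and −0.36 in control libraries 1 to 3.

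Levels per length were compared with the deposited FPKM. The order in bile acid libraries ran from HSPA8 (303 ± 28.96 FPKM) over HSPA13 (61.8 ± 4.93), HSPA4 (58.6 ± 3.78), HSPA1A (32.2 ± 5.27), HSPA1B (21.6 ± 4.28), HSPA2 (11.9 ± 1.16) and HSPH1 (9.74 ± 1.18) to HSPA6 (2.03 ± 1.04) and HSPA1L (1.31 ± 0.502), as mean ± SD with n = 3. In control libraries it ran from HSPA8 (199 ± 55.5 FPKM) over HSPA4 (59.9 ± 2.91), HSPA13 (56.4 ± 14.2), HSPA1A (20.1 ± 10.5), HSPA1B (13.5 ± 2.503), HSPA2 (8.41 ± 0.817) and HSPH1 (6.66 ± 1.34) to HSPA1L (1.27 ± 0.995) and HSPA6 (0.246 ± 0.0677). The means of HSPA13 and HSPA4 lay closer than the larger SD in each group, though HSPA13 was above HSPA4 in all 3 bile acid libraries and in controls 1 and 3. The same held for HSPA1A and HSPA1B in control libraries, where HSPA1A was nonetheless above HSPA1B in each of the 3, and for HSPA6 and HSPA1L in bile acid libraries. That order of HSPA1A and HSPA1B is one of the deposited FPKM. On the recovered reads HSPA1A held 48.7% of the pair in control 1. HSPA6 was below HSPA1L in all 3 control libraries and above it in bile acid libraries 1 and 3.

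The makeup of the family can be read within each library, free of scaling between libraries, though not of the length trend of control 2. HSPA8 held 59.1%, 58.8% and 62.9% of the summed FPKM of the 9 genes in bile acid libraries, against 49.9%, 61.1% and 50.6% in control libraries. HSPA4 held 11.9%, 12.7% and 10.6% in bile acid libraries, against 18.5%, 13.9% and 17.4% in control libraries, a lower share in every bile acid library than in any control. Its own level overlapped between the groups (58.6 FPKM in bile acid and 59.9 FPKM in control libraries, on average), while the sum it is divided by averaged 502 FPKM in bile acid and 366 FPKM in control libraries. HSPA6 held 0.532%, 0.185% and 0.4704% in bile acid libraries, against 0.0987%, 0.0611% and 0.0477% in control libraries. For HSPA8 and for HSPA1A with HSPA1B, control 2 lay among the bile acid libraries. Unlike the shares, the summed FPKM depends on scaling between libraries. It was 526, 460.1 and 519 in bile acid libraries, against 309, 427 and 361 in control libraries, and did not overlap.

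**Figure D3:**
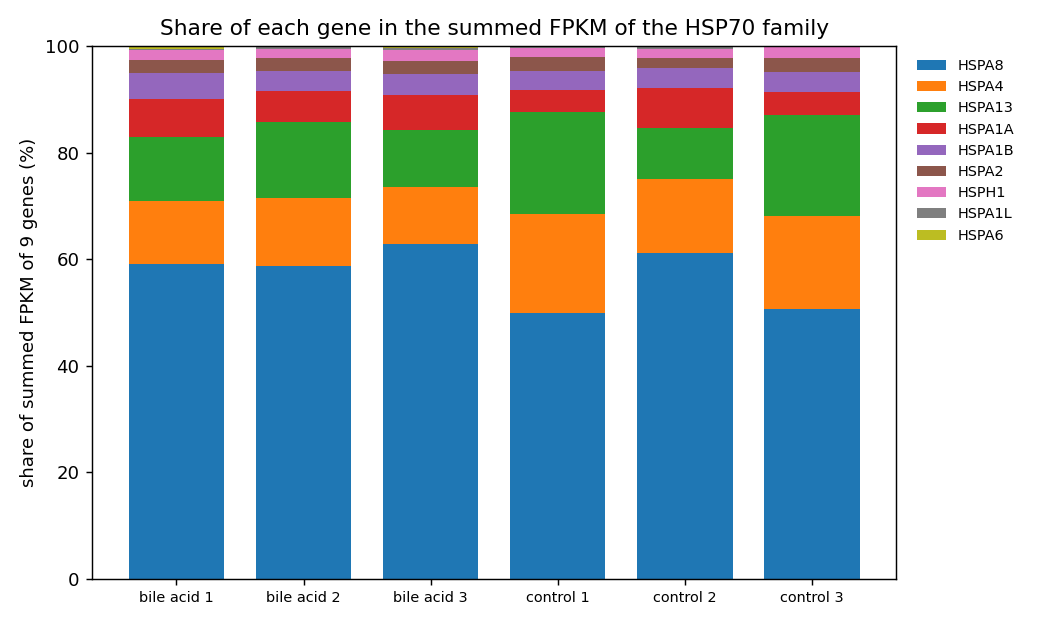
Share of each gene in the summed FPKM of the 9 genes (vertical axis, %) in each of the 6 libraries. HSPA8 takes 58.8% to 62.9% in bile acid libraries and 49.9% to 61.1% in control libraries, while HSPA4 takes 10.6% to 12.7% in bile acid and 13.9% to 18.5% in control libraries, on a summed FPKM that is higher in bile acid libraries.

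Partner genes were read from 3 companion lists. Among 18 co-chaperones of HSP70, all tested, 11 had a positive log2 fold change with a median of 0.08, 0 passed in edgeR, and 2 were higher at an unadjusted p under 0.05, beside 48.8% of all genes positive and 1.93% higher at that p. Without control 2 it was 13 positive, a median of 0.13 and 6 higher, beside 50.8% and 5.02%, and without control 1 it was 8 positive and 1 higher, beside 51.1% and 2.3%. All bile acid libraries lay above controls 1 and 3 for 9 of the 18, beside 12.1%. DNAJB1, the main heat-inducible J-domain partner of HSP70, measured 255, 164 and 189 CPM in bile acid libraries, against 99.2, 139 and 112 CPM in control libraries, with no overlap and a log2 fold change of 0.79 (SE 0.24). BAG3, an inducible exchange factor that feeds clients to autophagy, measured 108, 84.4 and 97.1 CPM in bile acid libraries, against 64.7, 38.9 and 74.1 CPM in control libraries, again with no overlap. DNAJB2, a J-domain partner, measured 65.6, 72.7 and 61.2 CPM in bile acid libraries, against 86.7, 201 and 72.9 CPM in control libraries, all bile acid libraries being lower. BAG1, another exchange factor, overlapped, with 18.3 to 22.4 CPM in bile acid and 19.3 to 54.9 CPM in control libraries. In control 2 the values of DNAJB2 and BAG1 were the highest of all libraries and that of BAG3 the lowest. Their log2 fold changes of −0.85, −0.70 and 0.70 were −0.25, −0.08 and 0.49 without it. In all, 2 co-chaperones (DNAJB1 and BAG3) lay above and 2 (DNAJB2 and BAG4) below without overlap, beside 5.29% and 4.89% of all genes.

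Of 17 heat shock factors and other HSF1 targets 16 were tested, of which 10 were positive with a median of 0.17, 0 passed in edgeR and 1 was higher at an unadjusted p under 0.05, beside the same 48.8% and 1.93% of all genes. Without control 2 it was 13 positive, a median of 0.39 and 8 higher, beside 50.8% and 5.02%. Without control 1 it was 8 positive, a median of 0.05 and 0 higher, beside 51.1% and 2.3%. All bile acid libraries lay above controls 1 and 3 for 9 of the 16, beside 12.1%. HSP90AA1, the inducible cytosolic HSP90, measured 2633, 2359 and 3774 CPM in bile acid libraries, against 1224, 2186 and 1586 CPM in control libraries. Its groups did not overlap and its log2 fold change was 0.81 (SE 0.30), or 1.07 (SE 0.22) without control 2, with bile acid library 3 the highest. The constitutive HSP90AB1 measured 1497, 1797 and 2012 CPM in bile acid libraries, against 1129, 1659 and 1147 CPM in control libraries, where control 2 overlapped, with a log2 fold change of 0.43, or 0.65 without control 2. AHSA1, which stimulates the HSP90 ATPase, overlapped, at 172 to 207 CPM in bile acid against 130.2 to 181 CPM in control libraries. HSF1 itself overlapped, at 115, 119.6 and 102 CPM in bile acid libraries against 116, 150.4 and 121 CPM in control libraries, and its log2 fold change was −0.21 (SE 0.19), or −0.07 (SE 0.13) without control 2. HSF1 was named after its values were seen. Without control 2, DESeq2 called DNAJA1 and DNAJB1 among the co-chaperones (2 of 18) and 3 of 16 in this list, HSP90AA1 and HSP90AB1 among them, all higher, beside the same 0.886%.

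Among 8 other genes of the HSP70 superfamily 7 were tested, 5 positive with a median of 0.15, and 0 passed in edgeR, with 1 higher at an unadjusted p under 0.05, beside 48.8% and 1.93% of all genes. Without control 2 it was 5 positive, a median of 0.20 and 2 higher, beside 50.8% and 5.02%. Without control 1 it was 3 positive, a median of −0.05 and 0 higher, beside 51.1% and 2.3%. HSPA4L, a close relative of HSPA4, measured 48.7, 36.9 and 55.1 CPM in bile acid libraries, against 31.2, 15.8 and 34.9 CPM in control libraries, with no overlap and a log2 fold change of 0.78 (SE 0.32), or 0.52 (SE 0.19) without control 2. The mitochondrial HSPA9, the ER-resident HYOU1 and the ribosome-associated HSPA14 each overlapped, with log2 fold changes of −0.15, 0.39 and 0.15, which were −0.05, 0.036 and 0.51 without control 2. HYOU1 ranged from 468 to 702 CPM in bile acid libraries and from 186 CPM, in control 2, to 553 CPM in control libraries.

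**Figure D4:**
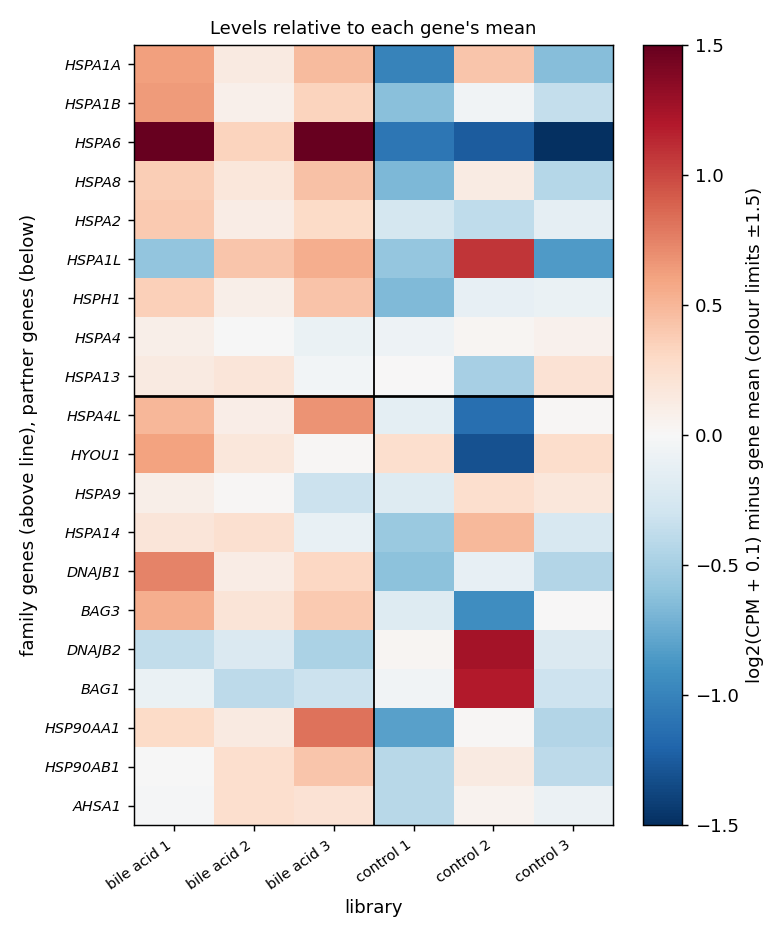
Log2(CPM + 0.1) minus the mean of each gene over the 6 libraries (colour, limits ±1.5) for the 9 family genes above the line and 11 named partner genes below it, with bile acid libraries on the left. HSPA6 shows the widest range, and control 2 differs from controls 1 and 3 in both directions, up for HSPA1A, HSPA1L, DNAJB2 and BAG1 and down for HYOU1, HSPA4L and BAG3.

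Likeness of pattern was measured as the root mean square difference of gene-centred log2 CPM over the 6 libraries, among 17743 genes. Genes named after a clone or with names in LINC were left out, so the neighbours are the nearest among the rest. Nearest to HSPA1B, leaving HSPA1A aside, was DNAJB1 at 0.063, followed by the transcription factor gene POU3F3 at 0.112 and the inflammatory protease gene CASP1 at 0.119. Among the nearest to HSPA8 were the coagulation inhibitor TFPI at 0.108 and POU3F3 at 0.118. HSPA6 had no neighbour as near, since the AP-1 subunits FOS and JUNB lay at 0.385 and 0.425 and the chromatin protein HMGA2 at 0.474. Levels of HMGA2 were low, at 2.03, 0.621 and 1.15 CPM in bile acid libraries. In control libraries they were 0.180, 0.112 and 0.213 CPM, near the floor of 3 counts. Its log2 fold change ran from 0.08 to 3.19 over the alternatives. FOS measured 366, 60.1 and 144 CPM in bile acid libraries, against 22.1, 23.4 and 11.8 CPM in control libraries, so that bile acid library 1 was much further above library 3 for FOS than for HSPA6. These distances are a description over the same 6 libraries on the deposited counts. For HSPA1B they were not computed on the recovered reads, where its reads in control 2 were 1.70 times as many.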

How the data were processed

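Read counts per gene of 6 RNA-seq libraries (paired reads of 150 bases, per the labels' protocols), whole numbers as deposited by the authors, were the main measure. Per the submitters' processing notes, the build was GRCh38 and the tools included DESeq2, featureCounts and HISAT2 2.0.5. Which annotation was used and whether counting was by strand are not given in the sources used here. The coordinates of the 9 genes equal those of GENCODE release 29. The deposited FPKM are fragments scaled by gene length and library as the authors computed them, with 1 library divisor each, 1.14 to 1.18 times the TMM-scaled total used here. The authors' deposited normalized counts are a signal equal to whole reads divided by a size factor (100% of values whole within 0.001), and these recovered reads exceed the deposited counts by 3.84% to 4.20% in total. The deposited comparison holds, per the file headers, a log2 fold change, a test score and p-values. A further 2 value columns were not used.

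Groups were compared in edgeR 4.0.16 (R 4.3.3) by quasi-likelihood, with TMM scaling and filterByExpr, 3 bile acid against 3 control libraries without covariates, with Benjamini-Hochberg adjusted p under 0.05 over all genes. An SE is the log2 fold change over the square root of F. CPM are TMM-scaled unless stated. Alternatives were DESeq2 1.42.0, limma-voom and limma on log2 FPKM (limma 3.58.1, pseudocounts 1 and 0.1), other scalings and filters (none, or 1 CPM in 3 libraries), a replicate block, removal of the length trend per library (lowess, span 0.3), the recovered reads, HSPA1A and HSPA1B summed, and each library left out. DESeq2, limma-voom and the length correction without control 2 were added after seeing the data. The scripts were tested on simulated data. Motifs were searched in RefSeq promoters, and 150-base windows were compared between GENCODE transcripts on both strands. Of 2 genes named HSPA14 the ID listed under that symbol in the reference was used. The members and lists were chosen with earlier results of these data known. Named were all members, the 4 members of each companion list with the smallest p, the 3 nearest patterns of HSPA1B, HSPA6 and HSPA8, and otherwise genes chosen after their values were seen, namely BAG4, DNAJA1, HSF1 and the pseudogene HSPA7. Some of the genes so chosen are not reported here.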

Additional observations from a re-analysis of the deposited data

How the results depend on the processing

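Counts of calls changed with control 2 and with the choice between edgeR and DESeq2. Over all genes edgeR called 0, DESeq2 19, edgeR without control 2 called 1, and DESeq2 and limma-voom without control 2 called 158 and 1, so the counts without a library ran from 0 to 158. Of the family the counts were 0 in edgeR, 1 in DESeq2 and 0 to 4 without a library, the 4 being DESeq2 without control 2. Co-chaperones gave 0 to 2 and HSF1 targets 0 to 3 without a library, both 0 with all libraries. The other HSP70 genes gave 0 throughout.

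The direction of HSPA6, HSPA1A, HSPA1B, HSPA8, HSPA2 and HSPH1 was the same in all alternatives. HSPA4, at −0.01 in edgeR, was 0.017 by library size alone and 0.0305 with no filter, ran from −0.053 to 0.043 without 1 library, and without control 2 was 0.0088 in DESeq2, 0.0095 in limma-voom and 0.0059 with the length trend removed. HSPA1L ran from −0.25 to 0.95 without 1 library (−0.04 and −0.13 without bile acid 2 or 3, −0.19 and −0.25 without control 1 or 3). HSPA13 ran from −0.0082, without control 2, to 0.33, and without control 2 was −0.0095 in DESeq2, −0.0079 in limma-voom and −0.022 with the length trend removed. HSPA14 ran from −0.053, without control 1, to 0.51. The cause was not tested. The mean FPKM of HSPA1L in control libraries was 1.27 with all of them and 0.697 without control 2, and no other mean FPKM of a member moved by over 1.5 times without 1 library.

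The replicate numbers are shared by the groups, and the deviations of same-numbered libraries correlated at 0.307, 0.382 and 0.0979. Bile acid 1 and 2 correlated best with the control of the same number, and bile acid 3 with control 1 (0.144). With 3 libraries in each group, and control 2 apart from the others, these values cannot decide whether the numbers pair the libraries. With the replicate block 0 genes were called, with a lowest adjusted p of 0.548, and HSPA6 had a log2 fold change of 2.95, or 3.08 with the length trend removed as well. At the depth of control 2, HSPA6 rests on 13 counts and HSPA7 on 0, which allows up to 0.143 CPM by library total, for counting error only.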
